A study of Mus musculus with 9 samples.

Results

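Malat1, Neat1, Meg3, H19, Gas5, Snhg1, Snhg12 and Mir17hg are 8 well-known long non-coding RNAs, and their levels were read in RNA from the inner lining of the mouse thoracic aorta with and without the MEF2 transcription factors. They were taken by symbol from the array annotation, as 8 of 30148 genes in all. Each symbol lay on 1 transcript cluster, the array's unit of measurement, so no choice between clusters arose. ACDiEKO mice carried Cdh5-CreERT2, a tamoxifen-activated recombinase driven from an endothelial promoter, together with Mef2a f/f, Mef2c f/f and Mef2d f/f. Controls were littermates with the same floxed alleles, without the recombinase. All mice were female and had 5 daily tamoxifen injections at 10 weeks of age. Aortas were taken 7 days after the first injection according to the series text and 14 days after it according to the sample protocols, a conflict that the labels do not settle. Because no control carried the recombinase, its presence cannot be told apart from the loss of MEF2. RNA came from lysis reagent flushed through the lumen of single aortas, not from sorted cells. There were 5 ACDiEKO and 4 control arrays of 1 aorta each.

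Long non-coding RNAs are transcripts that are not translated into a protein of their own, and the 8 differ in what they do. Malat1 and Neat1 stay in the nucleus, where Malat1 is found in nuclear speckles, the stores of splicing factors, and Neat1 is the scaffold of paraspeckles, bodies built from RNA-binding proteins. Meg3 and H19 are transcribed from the maternal chromosome only, opposite the paternally expressed genes Dlk1 and Igf2. Gas5, Snhg1 and Snhg12 are host genes: small nucleolar RNAs (snoRNAs), which guide the chemical modification of ribosomal RNA, are cut from their introns, while the spliced remainder is degraded by nonsense-mediated decay. Mir17hg is the primary transcript of a cluster of microRNAs that are linked to cell proliferation. In endothelial cells Malat1, Meg3, Gas5 and Snhg12 have each been studied for effects on growth, ageing or repair.

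The annotation of Malat1 and Neat1 named no other gene. The clusters of the other 6 also listed small RNAs: Mir770 and the Mir1906 copies for Meg3, Mir675 for H19, Snord47 and Mir5117 for Gas5, Snord22 for Snhg1, Snora44, Snora61 and Snord99 for Snhg12, and 6 microRNAs for Mir17hg. Their values therefore cover the host transcript and whatever small RNA the probes also reach, which cannot be told apart here.

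ACDiEKO replicates 1 and 2 were almost identical, with a robust SD between them of 0.0836 where the other 15 within-group pairs gave 0.297 to 0.437. They were averaged, so 4 ACDiEKO samples were set against 4 control samples. The array medians lay between 6.13 and 6.15 in ACDiEKO and between 6.17 and 6.23 in control, and the number of arrays limits the precision. The floxed genes did not differ past the threshold, with log2 differences of 0.12 for Mef2a (adjusted p = 0.44), 0.06 for Mef2c (0.66) and 0.23 for Mef2d (0.11); their clusters are summarised over the transcript as a whole and so do not check the genotype. Of 14 endothelial markers, 13 were measured and tested; 2 rose and 4 fell (limma, median -0.18), with a mean level of 12.15 to 12.69 in ACDiEKO samples and 12.42 to 12.90 in control samples. Markers of smooth muscle and of dividing cells moved with genotype: 9 of 12 tested smooth muscle markers rose (mean level 9.55 to 10.42 in ACDiEKO and 8.36 to 9.19 in control, with Des and Casq2 below the filter), and 17 of 17 markers of dividing cells rose (9.45 to 10.33 and 7.08 to 7.43). Of 11 fibroblast markers, 1 rose and 3 fell (mean level 8.81 to 9.37 and 9.31 to 9.43). Of the 10 leukocyte markers tested, 0 passed limma and the mean level was 6.97 to 9.04 in ACDiEKO, where replicate 5 was the highest, and 6.63 to 7.44 in control; Cd3e and Cd79a lay below the filter. Of 9 adipocyte markers, 0 passed limma (7.12 to 9.62 and 7.94 to 10.00; Lep below the filter). Only 2 of 7 erythrocyte markers were measured, and 0 passed (7.93 to 9.16 and 8.15 to 9.39). Of 5 measured Schwann cell and neuron markers, Sox10, Cdh19, Tubb3 and Snap25 lay below the filter and the other fell (5.48 to 5.77 and 5.71 to 6.02). Their part in the results below was not tested.

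Values are the log2 values deposited by the authors. They are RNA levels, also where a gene is named by its protein, and no protein was measured. A gene was tested where at least 4 of the 8 samples lay above 6.165, the median of the table, and all 8 RNAs passed that filter. In limma with Benjamini-Hochberg adjustment over 16367 genes at 0.05, Malat1, Neat1 and Meg3 fell, Snhg1 and Snhg12 rose, and Gas5, H19 and Mir17hg did not pass. These 5 calls of 8 stand beside 2665 of 16367 tested genes, or 16.3%; 8.91% of genes were higher and 7.37% lower in ACDiEKO. The 5 RNAs that passed were also the 5 whose sample values did not overlap between the groups, which was so for 22.9% of tested genes. The median difference was 0.39 over the 8 RNAs, of which 5 were higher and 3 lower in ACDiEKO, and -0.03 over all tested genes. That 0.39 lies between the differences of H19 (0.20) and Mir17hg (0.57), so it describes no shift shared by the 8. In a lysate, fewer cells of a type and less RNA per cell cannot be told apart.

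Animal numbers in the titles put 2 controls, replicates 3 and 4, apart from all the other mice, in a lower range. Within the higher range, against control replicates 1 and 2 alone, limma gave -0.66 for Malat1 (adjusted p = 0.0306), -0.96 for Neat1 (0.0278), -0.81 for Meg3 (0.0341) and 1.16 for Snhg1 (0.0398). Snhg12 differed by 1.11 there and did not pass (0.0575), nor did Gas5 (0.84, 0.124), H19 (0.23, 0.286) or Mir17hg (0.54, 0.272). With the range of animal numbers added to the fit of all 8 samples, Meg3 did not pass (-0.81, 0.0655), while Malat1, Neat1, Snhg1 and Snhg12 did.

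**Figure D1:**
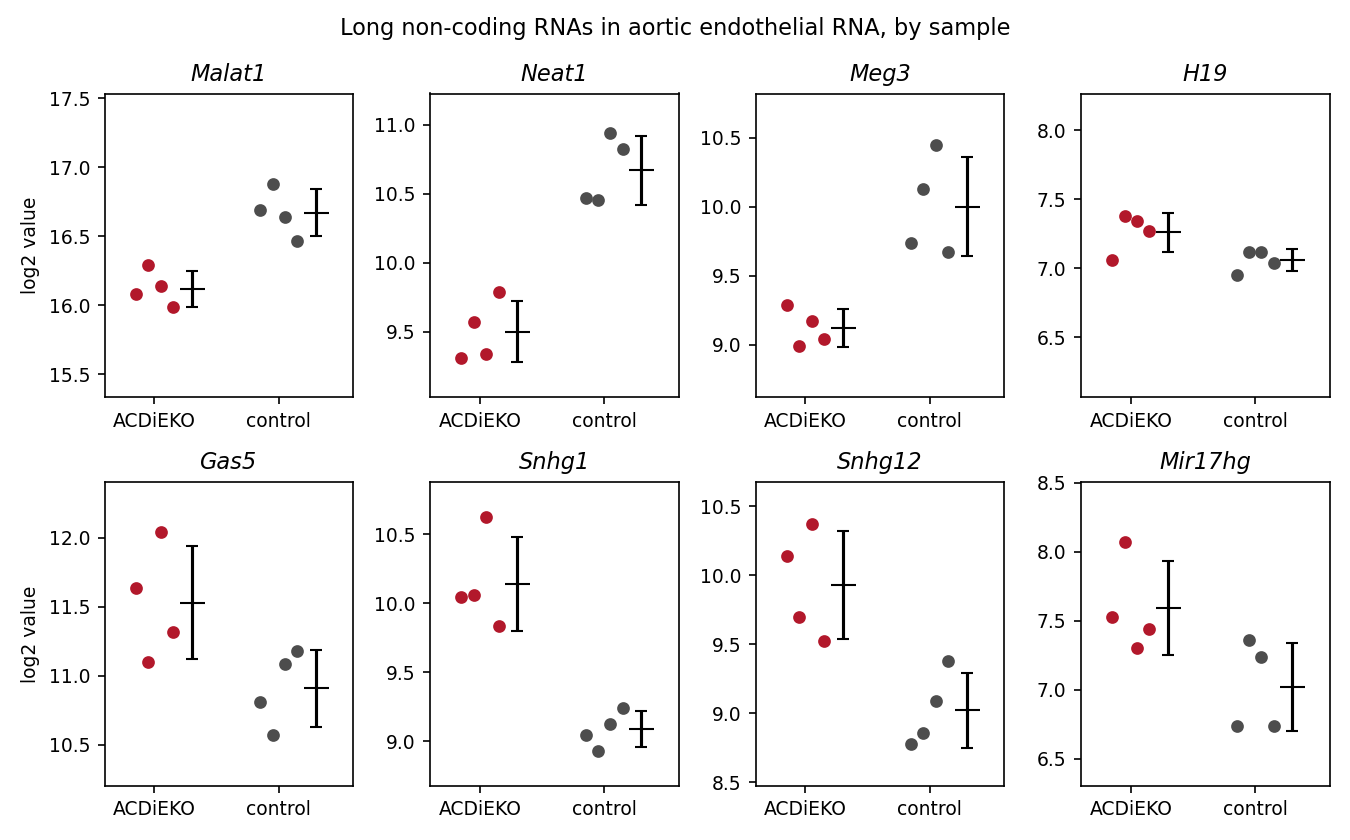
Log2 values of the 8 RNAs in each sample, ACDiEKO (red, replicates 1 and 2 averaged) left of control (grey), with the mean and SD of 4 samples beside each group; all panels span the same number of log2 units. For Malat1, Neat1 and Meg3 every ACDiEKO point is below every control point, and for Snhg1 and Snhg12 every ACDiEKO point is above.

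**Figure D2:**
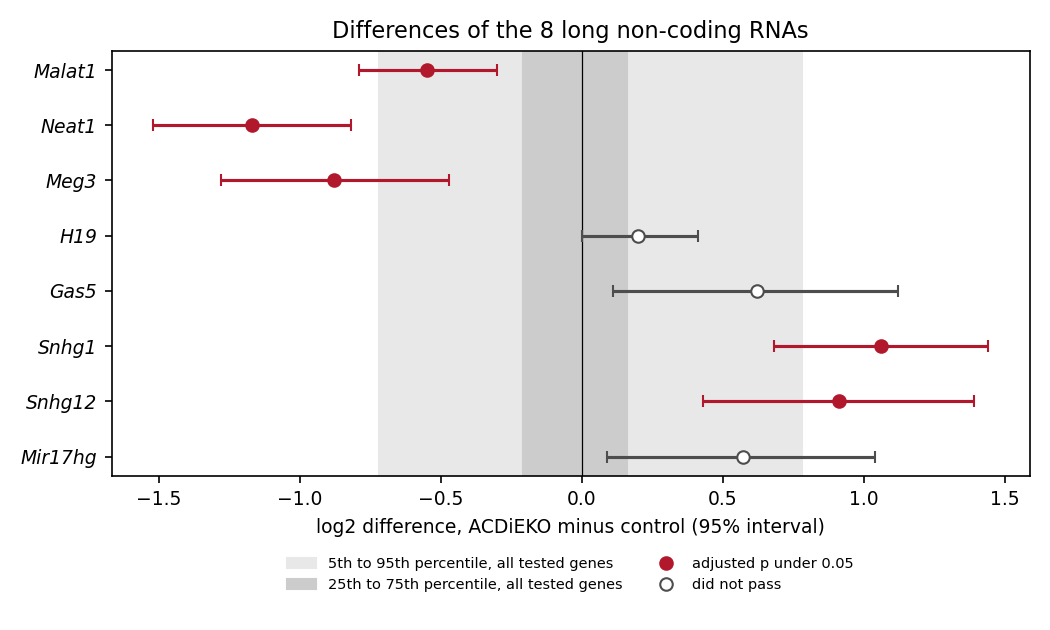
Log2 difference of each RNA, ACDiEKO minus control, with its 95% interval from limma; filled points passed the test, and the grey bands hold the central differences of all 16367 tested genes. Neat1 (-1.17) and Snhg1 (1.06) lie farthest from 0 on either side. Both, and also Meg3 (-0.88) and Snhg12 (0.91), lie outside the 5th to 95th percentile of all genes (-0.72 to 0.78).

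Malat1 was at 16.08, 16.29, 16.14 and 15.99 in ACDiEKO samples (replicates 1 and 2 averaged, 3, 4 and 5), against 16.69, 16.88, 16.64 and 16.47 in control samples 1 to 4. The groups did not overlap: control replicate 4, the lowest control, was above ACDiEKO replicate 3, the highest of its group. The means were 16.12 ± 0.13 in ACDiEKO and 16.67 ± 0.17 in control (SD, n = 4 each), a log2 difference of -0.55 (SE 0.11; limma, adjusted p = 0.0115).

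Neat1 had the larger difference of the nuclear pair. It was at 9.31, 9.57, 9.34 and 9.79 in ACDiEKO samples and at 10.47, 10.45, 10.94 and 10.82 in control samples. All 4 ACDiEKO samples were below all controls, with the highest of them in replicate 5, and controls 3 and 4 were above controls 1 and 2. Neat1 averaged 9.50 ± 0.22 in ACDiEKO and 10.67 ± 0.25 in control (SD, n = 4 each), so it fell by 1.17 on the log2 scale (SE 0.15; limma, adjusted p = 0.00249).

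Malat1 and Neat1 are neighbours on chromosome 19 in the RefSeq gene order. The 4 measured genes that flank the pair within 2 places did not pass the test: Ltbp3, which binds latent transforming growth factor, differed by 0.34 (adjusted p = 0.0887), Ehbp1l1 by -0.10, Frmd8 by 0.11 and the mitochondrial carrier Slc25a45 by 0.29 (0.0665). Ltbp3 and Slc25a45 had sample values without overlap, on the higher side in ACDiEKO. Such separation, in either direction, was found in 22.9% of tested genes.

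Promoter windows of 250 bases before to 50 after the annotated start were available from RefSeq (GRCm38.p6) for 6 of the 8 genes, in 8 windows. Neat1 and H19 had no window and were not searched. The Mir17hg window lies within its microRNA cluster, with 4 of the 6 hairpins before the annotated start. All 8 windows were searched for the consensus site of MEF2, the family deleted in these mice. The pattern is its own reverse complement, so 1 search covers both strands. It was found in the windows of Malat1 and Snhg1, of which Malat1 fell and Snhg1 rose, and in 3.19% of 32851 promoter windows of the same table. Both windows are shown because they hold that match, in capitals:
Malat1, chr19:5802623-5802922, minus strand: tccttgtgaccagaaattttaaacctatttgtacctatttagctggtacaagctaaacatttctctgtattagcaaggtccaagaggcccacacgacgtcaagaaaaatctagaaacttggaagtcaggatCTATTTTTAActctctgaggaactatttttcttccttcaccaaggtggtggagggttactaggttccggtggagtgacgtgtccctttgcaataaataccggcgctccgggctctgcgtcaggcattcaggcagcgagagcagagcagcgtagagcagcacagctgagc
Snhg1, chr19:8723237-8723536, plus strand: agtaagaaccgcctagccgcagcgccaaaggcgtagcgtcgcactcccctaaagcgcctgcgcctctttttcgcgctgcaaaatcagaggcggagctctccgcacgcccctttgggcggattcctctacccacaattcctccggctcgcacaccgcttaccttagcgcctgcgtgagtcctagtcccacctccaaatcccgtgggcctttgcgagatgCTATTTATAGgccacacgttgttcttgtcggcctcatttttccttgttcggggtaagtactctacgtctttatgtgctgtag
The match of 10 bases begins at position -119 in the Malat1 window and at -32 in the Snhg1 window, counted from the annotated start. In Snhg1 it overlaps a TATAAA on the opposite strand that begins at -29. TATAAA on either strand was in 13.6% of all windows and, among the 6 genes with a window, also in a window of Meg3. A match is a run of letters and not evidence of binding.

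The RNA levels of genes for proteins that assemble paraspeckles on Neat1 differed by smaller amounts than Neat1 itself. Of 15 tested, 5 rose and 0 fell (limma), beside 8.91% and 7.37% of all tested genes. Their median was 0.19, with 6 higher and 0 lower at an unadjusted limma p under 0.05. The RNA-binding Ewsr1 rose by 0.31 (adjusted p = 0.0239), the chromatin remodeller Smarca4 by 0.48 (0.0351), the cleavage factor subunit Cpsf6 by 0.27 (0.0383), Hnrnpk by 0.25 (0.0393) and Fam98a by 0.91 (0.0457). The core proteins Nono and Pspc1 differed by 0.02 and 0.19 and did not pass; both were chosen after their values were seen. None of the 5 calls was stable to the loss of 1 sample: the count was 0 without control replicate 1, without ACDiEKO replicates 1 and 2 and without ACDiEKO replicate 4 (5 at an unadjusted p under 0.05 each), 1 without control replicate 2, 2 without control replicate 3, control replicate 4 or ACDiEKO replicate 3, and 3 without ACDiEKO replicate 5. It was also 0 without control replicates 3 and 4 together (7 at an unadjusted p under 0.05), and Hnrnpk did not pass after centring (0.0552) or quantile normalization (0.125).

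Of 17 genes for nuclear speckle and splicing proteins, 3 rose and 1 fell (median 0.03), where 8.91% of all tested genes rose and 7.37% fell. The kinase Srpk1, which phosphorylates splicing factors, rose by 0.59 (adjusted p = 0.00724) and the splicing factor Srsf6 by 0.55 (0.0137), while the speckle kinase Clk1 fell by 0.59 (0.00984). Without control replicates 3 and 4 together, neither Srsf6 (0.64, 0.0568) nor Clk1 (-0.56, 0.0761) passed. Srsf3 rose by 0.39 (0.0376) and did not pass in 7 of 8 fits that left out 1 sample, with adjusted p up to 0.0891; only the fit without ACDiEKO replicate 5 kept it (0.0306).

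Meg3 was at 9.29, 8.99, 9.17 and 9.04 in ACDiEKO samples, against 9.74, 10.13, 10.45 and 9.67 in control samples. The ACDiEKO samples lay close together, whereas controls 2 and 3 were well above controls 1 and 4. The means were 9.12 ± 0.14 in ACDiEKO and 10.00 ± 0.36 in control (SD, n = 4 each), a difference of -0.88 (SE 0.17; limma, adjusted p = 0.013). Of its flanking genes, Dlk1, which shares its imprinting control region, and Begain lay below the filter. Beyond Meg3 on the other side, the microRNA clusters Mir673 (-0.34, adjusted p = 0.0688) and Mir493 (-0.89, 0.147) did not pass.

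H19 was dim, at 7.06, 7.38, 7.34 and 7.27 in ACDiEKO samples and 6.95, 7.12, 7.12 and 7.04 in control samples. The groups overlapped through the averaged ACDiEKO replicates 1 and 2. Its difference was 0.20 (95% interval 0.00 to 0.41; limma, adjusted p = 0.148). All of these values lay above the highest of 23 antigenomic background features (6.92), and the H19 control mean of 7.06 was below the median of 5222 features that the array names as negative controls (7.37).

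Igf2, the growth factor gene next to H19 that is read from the other parental chromosome, fell by 1.33 (7.86 in ACDiEKO and 9.20 in control; limma, adjusted p = 0.000562), and its sample ranges of 7.68 to 8.11 and 9.02 to 9.32 did not overlap. Mir483, which lies within Igf2, differed by 0.35 (0.286). Whether Igf2 and H19 differed from each other in response was not tested. As the background for the next counts, 8.91% of all tested genes rose and 7.37% fell. Across 14 tested imprinted genes other than Meg3 and H19, 0 rose and 4 fell (limma; 2 higher and 6 lower at an unadjusted p under 0.05), with a median of -0.14. Besides Igf2 these were the cell cycle inhibitor Cdkn1c (-0.39, 0.0182), the zinc finger gene Peg3 (-0.56, 0.024) and Impact (-0.33, 0.0394), a regulator of translation under stress. Igf2 passed in all 8 fits with 1 sample left out. Cdkn1c did not pass without ACDiEKO replicates 1 and 2 (0.0538) or ACDiEKO replicate 4 (0.054), and Peg3 did not without control replicate 1 (0.0596), 3 (0.0614) or 4 (0.0559). Impact passed only without control replicate 4 or ACDiEKO replicate 5 (up to 0.1 otherwise). Without control replicates 3 and 4 together, Cdkn1c (-0.38, 0.112) and Peg3 (-0.55, 0.133) did not pass, and with the range of animal numbers in the fit Impact did not (-0.40, 0.0633).

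The 3 snoRNA host genes were all higher on average in ACDiEKO, and 2 of them passed the test. Snhg1 was at 10.05, 10.06, 10.63 and 9.84 in ACDiEKO samples, against 9.05, 8.93, 9.13 and 9.24 in control samples. Every ACDiEKO sample was above every control, and replicate 4 was the highest. Snhg1 averaged 10.14 ± 0.34 in ACDiEKO and 9.09 ± 0.13 in control (SD, n = 4 each), so it rose by 1.06 (SE 0.17; limma, adjusted p = 0.0052).

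Snhg12 was at 10.14, 9.70, 10.37 and 9.52 in ACDiEKO samples and at 8.78, 8.86, 9.09 and 9.38 in control samples. The groups did not overlap, though the gap between ACDiEKO replicate 5 and control replicate 4 was narrow. The means were 9.93 ± 0.39 in ACDiEKO and 9.02 ± 0.27 in control (SD, n = 4 each), a difference of 0.91 (SE 0.21; limma, adjusted p = 0.0229). The call ended without control replicate 1 (0.0577), control replicate 2 (0.0606), control replicate 3 (0.052), ACDiEKO replicates 1 and 2 (0.0651) or ACDiEKO replicate 4 (0.0553), and with no filter on dim genes (0.0553).

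Gas5 was at 11.64, 11.10, 12.04 and 11.32 in ACDiEKO samples, against 10.81, 10.57, 11.09 and 11.18 in control samples. Replicate 4 was again the highest, and ACDiEKO replicate 3 lay below control replicate 4. The means were 11.53 ± 0.41 and 10.91 ± 0.28 (SD, n = 4 each), a difference of 0.62 with a 95% interval of 0.11 to 1.12 that did not pass (SE 0.22; limma, adjusted p = 0.0944).

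Likeness between RNAs was measured as the root mean square difference between their values over the 8 samples, each RNA first centred on its own mean. Among the 28 pairs of the 8 RNAs, Snhg1 and Snhg12 were the closest (0.18), followed by Gas5 and Snhg12 (0.207) and by Gas5 and Snhg1 (0.282). Malat1 and Meg3 came next (0.292), and Neat1 and Snhg1 were the farthest apart (1.16). These distances include the difference between the groups that is described above and carry no test.

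**Figure D3:**
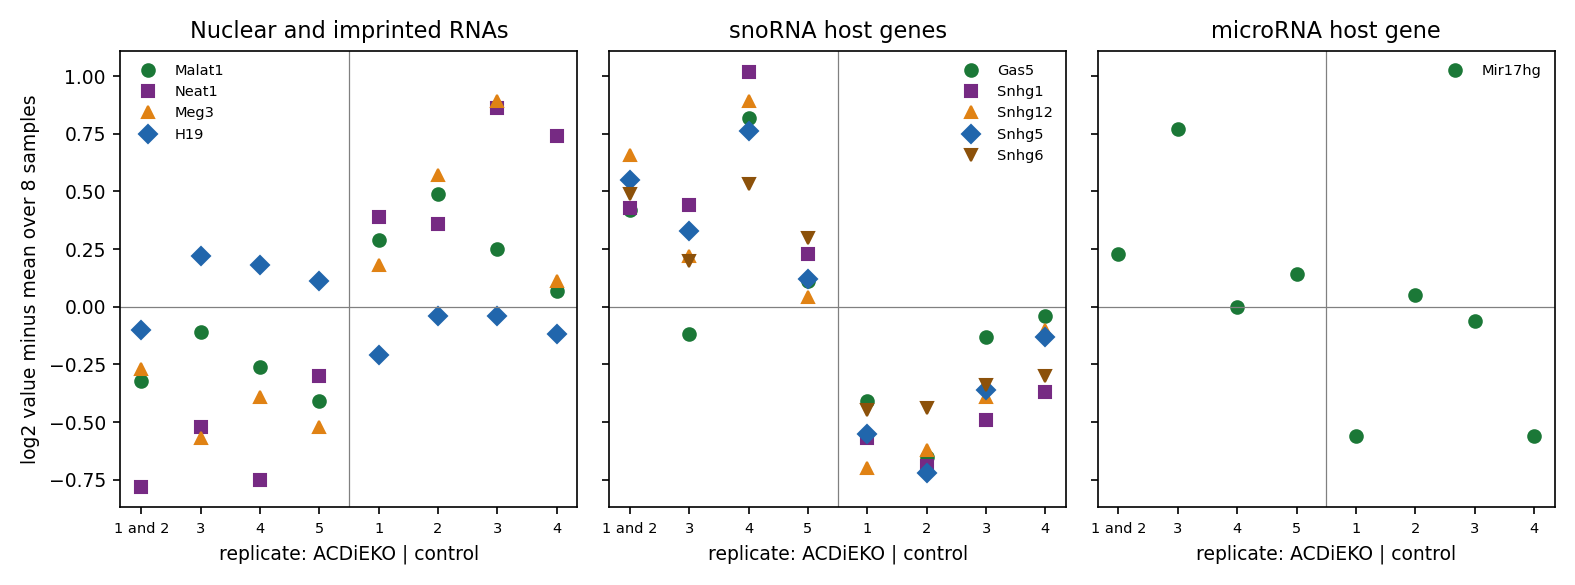
Log2 values of the 8 RNAs and of Snhg5 and Snhg6 in each sample after subtracting each RNA's mean over the 8 samples; ACDiEKO samples stand left of the line and controls right of it. In the middle panel all 5 host genes shown peak in ACDiEKO replicate 4, and in the left panel Malat1, Neat1 and Meg3 lie below 0 in every ACDiEKO sample and above 0 in every control.

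Other host genes were measured where they had a cluster of their own, which was so for 9 of 19, with 7 above the filter. Of these, 3 rose and 0 fell (limma), beside 8.91% and 7.37% of all tested genes. Their median was 0.38, with 4 higher and 1 lower at an unadjusted limma p under 0.05. Snhg6 rose by 0.76 (9.92 in ACDiEKO and 9.16 in control; adjusted p = 0.00193) and Snhg5 by 0.89 (10.60 and 9.72; 0.0112), and both passed in all 8 fits with 1 sample left out. Snhg15 rose by 0.38 (0.0252), with adjusted p between 0.0571 and 0.0666 without control replicate 1, control replicate 3, ACDiEKO replicates 1 and 2, ACDiEKO replicate 3 or ACDiEKO replicate 4, and 0.0966 without control replicates 3 and 4 together. Of 22 listed snoRNAs from Gas5, Snhg1 and Snhg12, only Snora16a had its own named cluster, and it lay below the filter.

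Many of these host genes start with a run of pyrimidines, the 5′ TOP signal that they share with genes of the translation machinery. Of 9 tested 5′ TOP translation genes, 2 rose and 0 fell (limma), beside 8.91% and 7.37% of all tested genes. Their median was 0.16, with 3 higher and 0 lower at an unadjusted limma p under 0.05. The nucleolar protein Npm1 rose by 0.47 (adjusted p = 0.0178) and the ribosomal stalk protein Rplp0 by 0.46 (0.0258), while the poly(A)-binding Pabpc1 differed by 0.25 (0.142). Rplp0 did not pass without control replicate 1 (0.0576), ACDiEKO replicates 1 and 2 (0.0703), ACDiEKO replicate 4 (0.0515) or ACDiEKO replicate 5 (0.0537). Neither passed without control replicates 3 and 4 together (0.117 for Npm1 and 0.106 for Rplp0). Genes of this kind have many processed copies, so their values are uncertain.

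Nonsense-mediated decay, the pathway that degrades the spliced host transcripts, had 9 tested factors. In limma 0 rose and 1 fell, beside 8.91% and 7.37% of all tested genes. The factors had a median of -0.06, with 1 higher and 2 lower at an unadjusted limma p under 0.05. Smg6, the endonuclease of the pathway, fell by 1.19 (9.77 in ACDiEKO and 10.95 in control; adjusted p = 0.0032). Its sample ranges of 9.51 to 10.05 and 10.57 to 11.21 did not overlap, and it passed in all 8 fits with 1 sample left out. Smg5 (0.35, 0.0602) and the kinase Smg1 (-0.26, 0.0821) did not pass.

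Next to Snhg1, Wdr74, a ribosome assembly factor, rose by 0.86 (10.89 in ACDiEKO and 10.03 in control; adjusted p = 0.00887), and the amino acid transporter subunit Slc3a2 on the other side differed by -0.34 (0.0829). Next to Gas5, the centromere protein gene Cenpl rose by 0.47 (0.0428), a call kept in only 1 of 8 fits with a sample left out, that without ACDiEKO replicate 5 (0.0438), with adjusted p up to 0.0931 in the others; it was 0.0557 after quantile normalization, 0.081 with no filter and 0.0779 without control replicates 3 and 4 together. Over all 17 tested neighbours of the 8 RNAs, 2 rose, 1 fell and 14 did not pass, with a median of 0.02. Among all tested genes 16.3% passed.

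Mir17hg was at 7.53, 8.07, 7.30 and 7.44 in ACDiEKO samples, against 6.74, 7.36, 7.24 and 6.74 in control samples. ACDiEKO replicate 3 stood highest, and replicate 4, which was highest for the snoRNA host genes, was the lowest of its group and below control replicate 2. The means were 7.59 ± 0.34 and 7.02 ± 0.32 (SD, n = 4 each), a difference of 0.57 with a 95% interval of 0.09 to 1.04 that did not pass (SE 0.21; limma, adjusted p = 0.102). Its control mean lay below the median of the negative control features (7.37). Control replicates 1 and 4 (6.74 each) lay below the highest antigenomic background feature (6.92).

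The cluster lists the 6 microRNAs cut from this transcript, which fall into 4 families by their seed, bases 2 to 8, the part that pairs with targets. The target list below was taken from published work, and no seed was matched to a target here. The main mature strands of the 6 microRNAs from RefSeq (GRCm38.p6) are shown with the seed in capitals, because the seeds define these families:
mmu-miR-17-5p: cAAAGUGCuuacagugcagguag
mmu-miR-20a-5p: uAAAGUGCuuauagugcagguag
mmu-miR-18a-5p: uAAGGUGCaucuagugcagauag
mmu-miR-19a-3p: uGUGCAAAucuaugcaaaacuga
mmu-miR-19b-3p: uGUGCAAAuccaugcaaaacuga
mmu-miR-92a-3p: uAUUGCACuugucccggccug
miR-17-5p and miR-20a-5p share the seed AAAGUGC, from which miR-18a-5p differs in its seed AAGGUGC, and miR-19a-3p and miR-19b-3p share GUGCAAA. In RefSeq, 4 of the 6 hairpins lie before the annotated start of Mir17hg, so its promoter window is not shown. Of 8 listed microRNAs from Mir17hg, H19 and Meg3, 0 had a named cluster of their own, so their levels were not read apart from the hosts.

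MYC and some E2F factors are known to drive Mir17hg. The list of such factors also held the MYC antagonists Mxd1 and Mxi1 and the repressive E2f7 and E2f8. Of its 11 tested genes, 6 rose and 0 fell (limma), beside 8.91% and 7.37% of all tested genes. Their median was 0.47, with 6 higher and 0 lower at an unadjusted limma p under 0.05. Myc rose by 3.0 (10.94 in ACDiEKO and 7.94 in control; adjusted p = 0.00204), E2f8 by 2.74 (8.69 and 5.95; 0.000356), E2f7 by 2.09 (0.00132), E2f3 by 1.32 (0.00628) and E2f1 by 0.47 (0.00879). Without control replicates 3 and 4 together, 4 of the 11 passed, and E2f3 did not (1.33, 0.0524). All control values of E2f8 (5.71 to 6.15) lay below the filter value of 6.165. It was tested only because its ACDiEKO values were high, so its call carries no independent weight. The markers of dividing cells given above rose as well, and their part was not tested.

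Published targets of the Mir17hg microRNAs, named as targets in mouse or human work, split in direction. Of 17 tested, 4 rose and 5 fell, with a median of -0.05, where 8.91% of all tested genes rose and 7.37% fell. Ccn2, a matricellular protein, rose by 3.23 (11.08 in ACDiEKO and 7.85 in control; adjusted p = 0.000294), and E2f1 rose as above. Klf4 fell by 4.09 (0.00152) and Klf2 fell by 3.55 (0.00104), both endothelial transcription factors known as targets of miR-92a, and the ephrin receptor Ephb4 fell by 0.73 (0.00523). The list was chosen with several of these changes known and is no independent sign of microRNA activity.

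**Figure D4:**
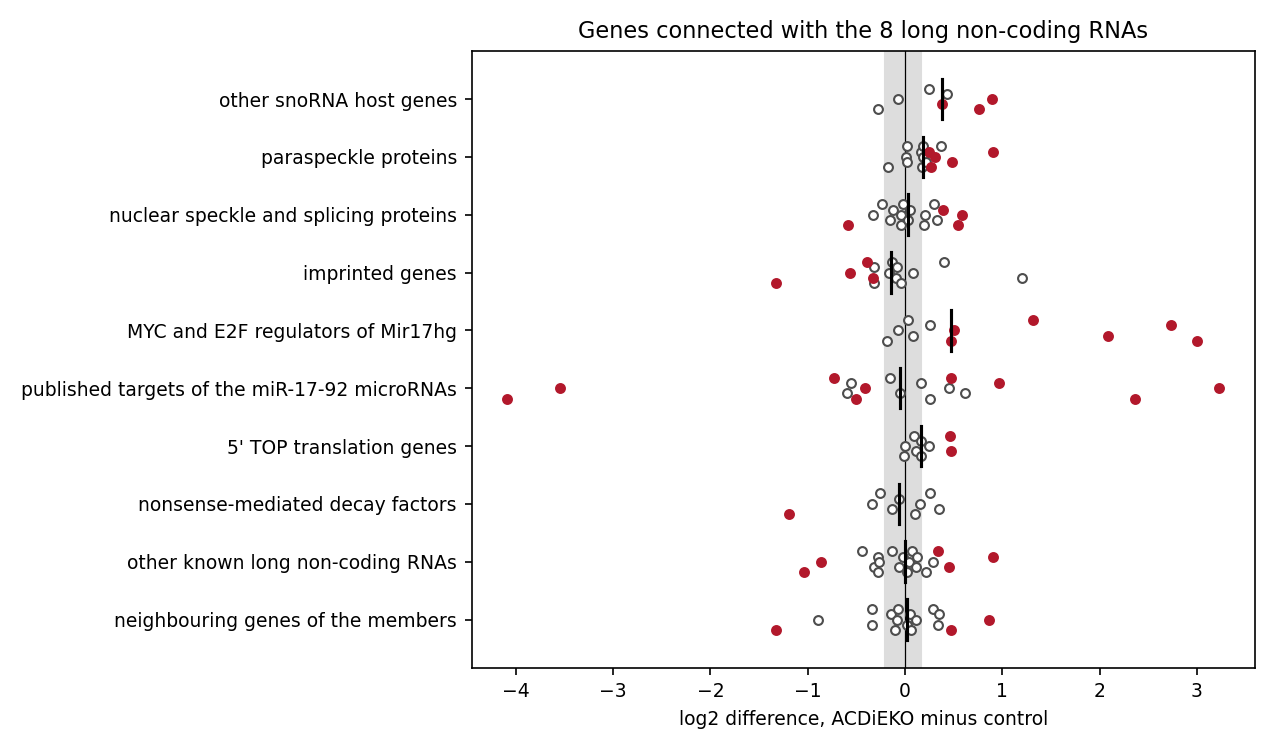
Log2 difference, ACDiEKO minus control, of every tested gene in the 10 groups of connected genes; filled points passed limma, bars mark each group's median, and the grey band spans the 25th to 75th percentile of all tested genes (-0.21 to 0.16). Groups with a median above that band are the other snoRNA host genes (0.38), the paraspeckle proteins (0.19) and the MYC and E2F factors (0.47).

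By the same root mean square measure, the tested genes most like each RNA over the 8 samples were named, 3 per RNA. For Malat1 they were Zfp667 (0.097), Cachd1 (0.105) and Rtn1 (0.106), where the median gene was at 0.348. For Neat1 they were Sox13 (0.103), Tmem141 (0.103) and Smg6 (0.104), against a median of 0.633, and for Meg3 Il6st (0.181), C1rb (0.184) and Als2cl (0.189), against 0.519. Smg6 is the decay factor described above, and Il6st is the shared receptor chain of the interleukin-6 family. H19 was closest to Becn1 (0.045), Zfp771 (0.059) and Smim13 (0.063), with a median of 0.242 that reflects how flat its own profile is. Gas5 was closest to Smyd4 (0.116), Rnaseh2b (0.133) and Exosc9 (0.14), with a median of 0.465. For Snhg1 the closest were Hnrnpab (0.063), Hmgn2l6 (0.11) and Cstf3 (0.123), against 0.599, and for Snhg12 Haus7 (0.08), Mtbp (0.086) and its fellow host gene Snhg5 (0.101), against 0.564. Mir17hg was closest to Snx9 (0.127), Sqle (0.164) and Pde7b (0.167), against 0.439. These distances are descriptions and carry no test.

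**Figure D5:**
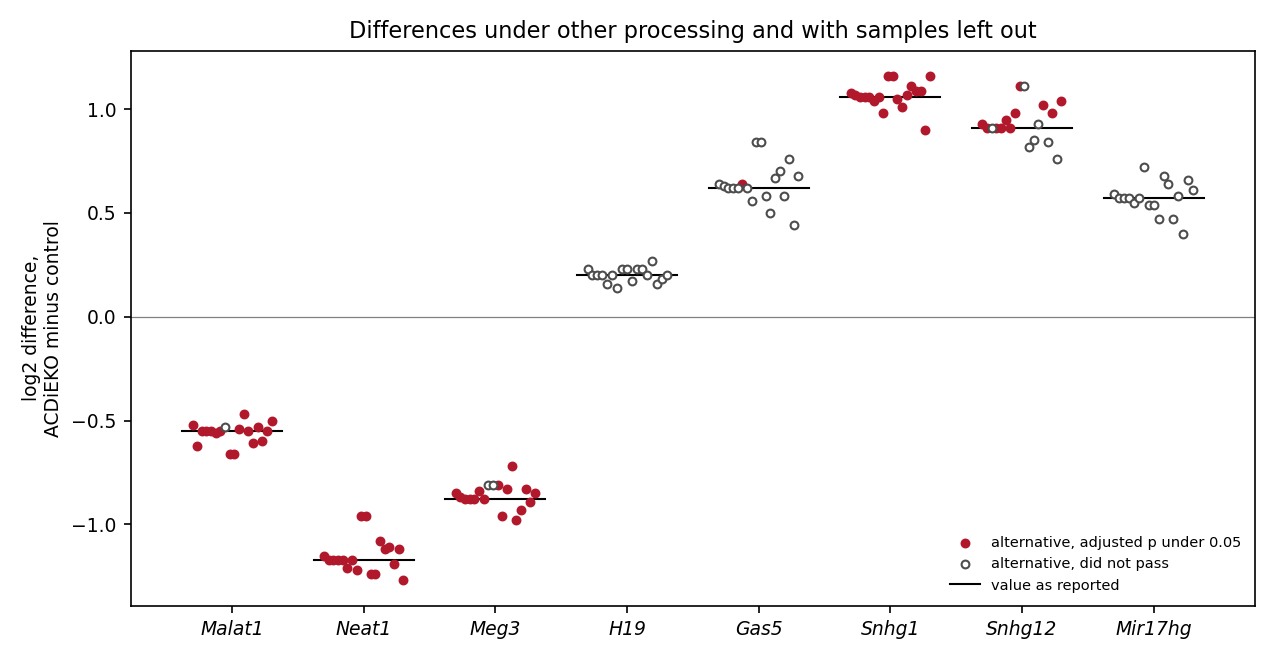
Log2 difference of each RNA, ACDiEKO minus control, under every alternative processing tried and with each sample left out (points, filled where the adjusted p was under 0.05); the line is the value as reported. No point crosses 0, and Neat1 and Snhg1 are filled throughout.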

How the data were processed

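From each aorta, 5 ng of RNA was amplified and read on a mouse array that covers coding and non-coding transcripts. The values deposited by the authors are log2 values made with RMA, per the submitters' processing notes, which give no version; they run from 2.58 to 19.34, beyond the range of a 16-bit scanner, so how they were scaled is not known and differences are given in log2 units, never as folds. The build and annotation are not given in the sources used here.

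Of 72688 features, 6732 array controls were left out. Among 65956 transcript clusters, 30604 had 1 symbol, 2146 several and 33206 none; 827 symbols were updated through gene IDs to RefSeq (GRCm38.p6, for names and gene order only). The brightest cluster per symbol was kept. Clusters with several symbols were left unnamed, except the 6 that hold 1 of the 8 RNAs; this gave 30148 genes. The test was limma (version 3.58.1, under R 4.3.3; lmFit and eBayes) for ACDiEKO minus control, two-sided, with Benjamini-Hochberg adjustment over all tested genes at 0.05. The number 3 stands in the titles of 2 controls, of which 1 is named control replicate 4 here.

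The 8 RNAs, the 11 gene lists and the 8 marker lists were chosen with earlier results of these data known. Named genes are the 8 RNAs, per list the 3 genes of smallest p, or up to 5 if more passed, neighbours that passed and the 3 genes most like each RNA (gene models, receptor and immunoglobulin families and small RNAs left out). Flanking genes that did not pass, and the proteins marked so, were named outside this rule, after their values were seen. Lists are described by counts and medians beside all tested genes. A simulation changed 200 of 16367 genes in each of 5 runs. There limma recovered 34%, 77.2% and 95.6% of genes changed by 0.5, 1 and 2 log2 units, and 6.42% of its calls were false. In the data far more genes passed (2665), so these shares need not hold there. Alternatives were median centring, quantile normalization, no or a stricter filter (8.417), the mean of a symbol's clusters, all 9 arrays, an intensity trend with robust variance, the replicate numbers as a block, the range of animal numbers as a term, leaving out control replicates 3 and 4, and each sample left out. Figures were drawn with matplotlib 3.10.9.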

Additional observations from a re-analysis of the deposited data

Results flagged for a closer look

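In 4 of 108 groups of 4 samples checked, 1 sample stood apart from the other 3 by more than Dixon's 95% critical value allows, where chance gives about 1 in 20. Control replicate 2 was low for Hnrnpk (13.71, against 13.84 to 13.85 in the other controls), and control replicate 1 was low for Srsf6 (12.41, against 12.69 to 12.74). ACDiEKO replicate 4 was low for Peg3 (7.96, against 8.43 to 8.47 in the other ACDiEKO samples). The mean level of the markers of dividing cells was lowest in ACDiEKO replicate 5 (9.45, against 10.21 to 10.33), which also had the highest leukocyte marker mean (9.04). None of the 8 RNAs had a sample that stood apart in this way.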

How the results depend on the processing

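None of the 8 RNAs changed direction under any of the 18 alternatives; H19 and Mir17hg were not tested under the stricter filter. Neat1 and Snhg1 passed in all of them. The numbers after "rep" do not pair the arrays (correlations of deviations from group means between same-numbered arrays -0.0856, -0.0726, 0.0458 and 0.0275). With them as a replicate block over all 9 arrays, 3 of the 8 RNAs passed instead of 5. Malat1 (-0.53, limma, adjusted p = 0.0581) and Meg3 (-0.81, 0.0914) were not among them. In that fit 1 paraspeckle protein passed, and 2353 genes passed. The numbers 4 and 5 occur only in ACDiEKO titles, so those 2 arrays add nothing to its group contrast. ACDiEKO replicates 1 and 2 were counted there as separate samples. With the range of animal numbers added to the fit, Meg3 did not pass (-0.81, 0.0655), and the counts were 1694 genes, 2 paraspeckle proteins, 1 imprinted gene, 0 translation genes (2 at an unadjusted p under 0.05, limma) and 3 other long non-coding RNAs. Without control replicates 3 and 4 together, whose animal numbers lie apart, Snhg12 did not pass (1.11, 0.0575), and the counts were 1118 genes, 0 paraspeckle proteins (7 unadjusted), 1 speckle protein, 2 imprinted genes, 0 translation genes (2 unadjusted) and 2 other long non-coding RNAs. With no filter, Snhg12 did not pass (0.91, 0.0553) and 3 paraspeckle proteins did; under the stricter filter, 3 other long non-coding RNAs passed. With all 9 arrays as samples, Gas5 passed (0.64, 0.046), with 8 speckle proteins, 2 decay factors and 6 neighbours. With 1 sample left out, the genes past the threshold numbered 1601 (without ACDiEKO replicate 4) to 2399 (without ACDiEKO replicate 5; 1741 without ACDiEKO replicates 1 and 2), and the counts ranged from 0 to 3 paraspeckle proteins, from 2 to 4 imprinted genes and from 1 to 2 translation genes, and Snhg12 from 0.76 to 1.04. The causes of these shifts were not tested. Of 674 alternatives over the 38 other named genes of the lists, 123 ended a call, 1 (Smg5 with all 9 arrays) made one and 0 changed direction. Signal near the array background limits H19 and Mir17hg. It also limits named genes with control means below the highest antigenomic feature (6.92), among them E2f1 (6.47), E2f7 (6.86), E2f8 (5.95) and Pvt1 (6.19).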

Other observations

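Among other known long non-coding RNAs, 20 were tested, of which 3 rose and 2 fell, with a median difference of 0.00. Of all tested genes, 8.91% rose and 7.37% fell. Xist, the RNA that coats the inactive X chromosome, rose by 0.45 (15.64 in ACDiEKO and 15.19 in control; limma, adjusted p = 0.0132) and its activator Ftx by 0.34 (0.0311). Xist did not pass after quantile normalization (0.37, 0.0699). Ftx did not pass without control replicate 2 (0.0718), control replicate 4 (0.0732), ACDiEKO replicate 3 (0.0703), ACDiEKO replicate 4 (0.0789) or ACDiEKO replicate 5 (0.0671). Pvt1, a transcript next to Myc, rose by 0.90 (7.09 and 6.19; 0.0139), beside the rise of Myc given above. Mir99ahg, a microRNA host gene, fell by 1.04 (7.74 and 8.78; 0.014), and Lncpint fell by 0.86 (10.32 and 11.19; 0.00543). In these 5, named because they passed, the sample values of the groups did not overlap, which was so for 22.9% of tested genes. Without control replicates 3 and 4 together, Xist (0.43, 0.0701), Ftx (0.32, 0.109), Pvt1 (0.94, 0.0889), Mir99ahg (-0.72, 0.0865) and Lncpint (-0.78, 0.0601) did not pass.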
